A study of Homo sapiens with 4 samples.

Results

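Glutathione transferases join glutathione to reactive, mostly fat-soluble compounds, which makes them easier to export, and some of them also reduce lipid peroxides. The family comprises membrane-bound enzymes of the MAPEG superfamily, encoded by MGST1, MGST2 and MGST3, soluble enzymes of several classes, such as those of GSTP1, GSTM2, GSTM3, GSTM4, GSTO1 and GSTZ1, and GSTK1, which belongs to a separate, mitochondrial and peroxisomal class. Of the 27011 genes in the deposited count table, 10 such genes are described here. They were chosen by family name with the counts of the 4 libraries, and the difference of MGST1 between them, already known. Every Helz-null to WT difference of these 10 genes is therefore a description and carries no test.

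The transcriptome was sequenced in HEK293T cells, an established human embryonic kidney line, as 2 WT libraries and 2 libraries of the Helz-null line, made from HEK293T by Cas9 editing of helz with a short deletion that shifts the reading frame. The labels name no treatment, and the sources used here do not say whether the Helz-null line is 1 clone. Each library held between 41745401 and 70464140 counts. The floor of 3 counts in a library was equal to 0.042 to 0.072 CPM, that is, TMM-scaled counts relative to the library total. HELZ itself fell from 97.7 and 101.7 CPM in WT to 36.2 and 37.1 CPM in Helz-null cells (log2FC of Helz-null over WT -1.44, standard error (SE) 0.042, with an edgeR adjusted p of 2.13e-27). A gene is called here at an FDR under 0.005 in this fit. Of 8 genes usually found in HEK293T cells, such as VIM and NEFM, 7 had an FPKM above 1 in every library, where FPKM is the TMM-scaled CPM per kilobase of gene width and is used here to compare levels between genes. The exception was LHX1, with 0.77 to 1.88 FPKM. Some of these genes differed between the groups. NEFM had 65.0 and 62.1 FPKM in WT and 118 and 117 FPKM in Helz-null (log2FC 0.89, called higher), and KRT8 had 11.8 and 12.9 against 6.02 and 6.43 FPKM (log2FC -0.98, called lower). Of 16 markers of blood, liver, fibroblast, endothelial and keratinocyte cells, 0 had an FPKM above 1 in every library, and 2, TTR and DCN, had 0 counts throughout. Their summed level was 5.25 and 6.61 CPM in WT and 5.73 and 5.73 CPM in Helz-null libraries.

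The mRNA of MGST1 was nearly lost in Helz-null cells, whereas each of the other 9 genes stayed within 0.22 of its WT level on the log2 scale. MGST1 encodes microsomal glutathione transferase 1, an enzyme of the endoplasmic reticulum and the outer mitochondrial membrane that protects membranes from peroxidized lipids. It was counted 1428 and 974 times in the WT libraries and 54 and 129 times in the Helz-null libraries. After scaling, the WT libraries had 22.2 and 23.2 CPM and the Helz-null libraries 1.28 and 1.81 CPM. Both Helz-null values lay far below both WT values and well above the floor. The Helz-null level was 6.79% of the WT level, a 14.7-fold difference (log2FC -3.82, SE 0.12, n = 2 libraries each). In these libraries, fewer cells with the mRNA and less mRNA per cell cannot be told apart. The Helz-null libraries differed more between themselves than the WT libraries did, by 0.50 against 0.063 on the log2 scale. Their 95% counting intervals (exact Poisson, counting error only) were 0.96 to 1.67 CPM and 1.51 to 2.15 CPM and thus overlapped. These intervals take each count as 1 molecule and are too narrow if both mates of a read pair were counted, which the library totals leave possible. The size of the difference depended on these 2 libraries. Without Helz-null replicate 2, the log2FC was -4.15, and without Helz-null replicate 1 it was -3.65.

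Among the 10978 genes of the comparison, MGST1 had the third lowest log2FC, and 11 genes had a log2FC of -2 or lower. Per length, MGST1 was above 2 FPKM only in the WT libraries (9.45 and 9.87 FPKM, against 0.54 and 0.77 FPKM in Helz-null). It could therefore have entered a comparison limited to genes above an FPKM of 2 only through WT, so that its passing such a limit is no support for the difference. The other 9 genes were above 2 in all 4 libraries.

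**Figure D1:**
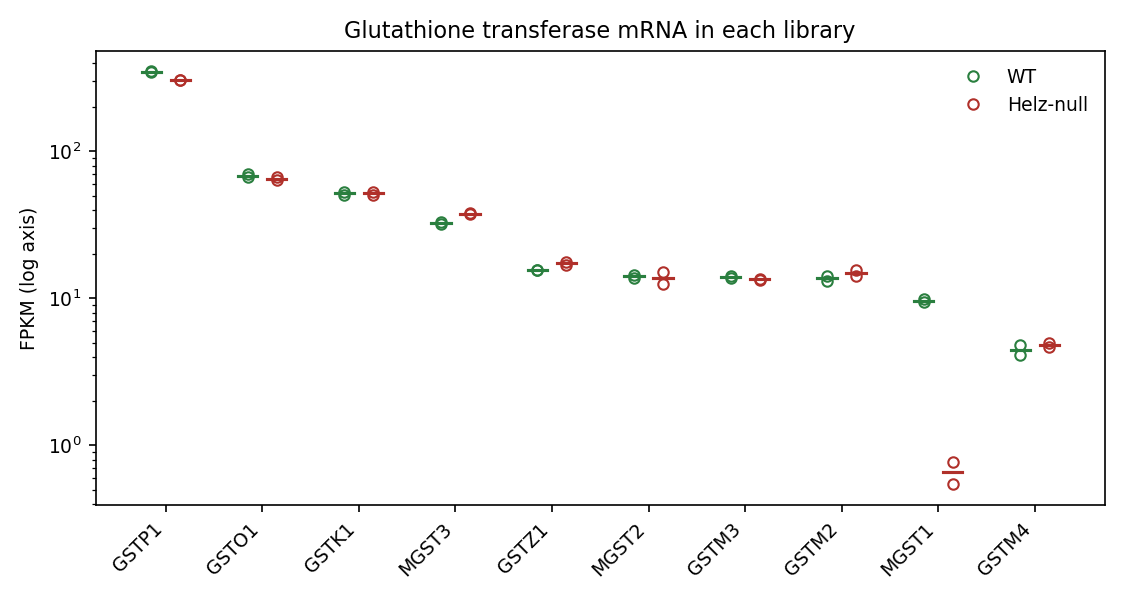
FPKM (log axis) of the 10 glutathione transferase genes in each of the 2 WT (green circles) and 2 Helz-null (red circles) libraries, with the group mean as a line, ordered by WT level. GSTP1 stands highest, at 347.5 FPKM in WT, and MGST1 is the gene whose 2 groups stand apart most widely, at 9.66 FPKM in WT and 0.66 FPKM in Helz-null.

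The 5 compared genes whose profiles over the 4 libraries were closest to that of MGST1 were BST2, HSPA1A, CMTR2, CASP8 and SATB1. Closeness was the Euclidean distance of log2 CPM after each gene's mean was subtracted, among 1243 genes whose mean log2 CPM was within 1 of that of MGST1. The distances ranged from 1.52 for BST2 to 2.46 for SATB1. All 5 were also lower in both Helz-null libraries, BST2 with a log2FC of -2.35 and SATB1 with -1.45, none with a log2FC as low as that of MGST1. Since the profile of MGST1 differs mainly between the groups, choosing genes by closeness to it selected genes lower in Helz-null. Genes at other mean levels were left out, among them DTX3 (log2FC -11.5) and LINC00693 (-6.17). The likeness of the 5 genes is a description over 4 libraries in 2 groups.

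On GRCh37, the build of the deposited counts (hg19), MGST1 lies on the plus strand of chromosome 12, and its canonical GENCODE transcript spans 16500579 to 16517344 in 4 exons. None of the 50-base stretches of this transcript occurs in an annotated transcript of another gene. The annotated gene overlaps other genes on both strands, among them LMO3 on the opposite strand. Whether reads were counted by strand is not given in the sources used here. The genes around MGST1 did not share its loss. Of the 10 compared genes on each side, spread over 9.88 Mb, 3 were called lower and 1 higher (FDR under 0.005 in edgeR), with a median log2FC of 0.060 and a lowest value of -0.26.

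The promoter of MGST1 is shown because several genes of this family are known targets of NRF2 (NFE2L2), a transcription factor of the oxidative stress response. NRF2 binds the antioxidant response element, searched for here by its core TGACNNNGC on both strands. RefSeq (GRCh38.p14) gives promoter windows, from 250 bases before to 50 bases after a start, for 9 of the 10 genes. MGST1 has 3 such starts. The 250 bases before 1 of its starts, and those before the starts of GSTP1 and GSTO1, both abundant in these cells, read as follows, with matches to the core in capitals.
MGST1, chr12:16347395-16347644, plus strand: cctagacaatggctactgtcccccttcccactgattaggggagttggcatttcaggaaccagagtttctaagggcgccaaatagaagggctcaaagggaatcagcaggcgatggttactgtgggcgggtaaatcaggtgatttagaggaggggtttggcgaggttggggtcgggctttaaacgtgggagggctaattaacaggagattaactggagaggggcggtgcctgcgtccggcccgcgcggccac
GSTP1, chr11:67583562-67583811, plus strand: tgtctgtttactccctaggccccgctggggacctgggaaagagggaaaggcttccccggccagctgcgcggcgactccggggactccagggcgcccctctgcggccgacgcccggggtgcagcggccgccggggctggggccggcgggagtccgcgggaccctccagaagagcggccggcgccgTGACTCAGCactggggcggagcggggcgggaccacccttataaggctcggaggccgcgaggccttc
GSTO1, chr10:104254642-104254891, plus strand: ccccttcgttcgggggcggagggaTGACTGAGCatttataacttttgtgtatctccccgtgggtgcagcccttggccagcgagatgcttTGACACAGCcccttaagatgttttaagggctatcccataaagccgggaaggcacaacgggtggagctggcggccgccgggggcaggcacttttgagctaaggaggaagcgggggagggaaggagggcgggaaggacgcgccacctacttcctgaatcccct

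The window of GSTP1 held 1 match, TGACTCAGC, 66 bases before the start, and that of GSTO1 held 2, TGACTGAGC and TGACACAGC, at 226 and 161 bases before it. For MGST1, 2 of the 3 windows held no match, and the third, with 39.7% GC, held TGACAAAGC 30 bases after its start. In all, 3 of the 11 windows of these genes had a match (27.3%). The share was 13.3% of all 35116 RefSeq windows of this length and 14.6% of the 12367 windows of compared genes. The share of these genes rests on few windows, 3 of them from MGST1, and the difference between the shares was not tested. A match describes the letters in the window and was not tied to binding. The log2FC of the genes with a match was -3.82 for MGST1, -0.19 for GSTP1 and -0.068 for GSTO1. That of the genes with a window but no match ranged from -0.050 for GSTM3 to 0.22 for MGST3. A link between a match and the difference was not tested.

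The other membrane-bound transferases were present in both cell types. The canonical transcript of MGST3 has 6 exons and spans 165600471 to 165625373 on chromosome 1, and that of MGST2 has 5 exons and spans 140586973 to 140625397 on chromosome 4, where MAML3 overlaps the gene on the opposite strand. MGST3, whose product has glutathione transferase and peroxidase activity, had 48.4 and 50.02 CPM in WT and 57.8 and 56.6 CPM in Helz-null libraries. Its groups did not overlap, and Helz-null was 1.16-fold higher (log2FC 0.22, SE 0.045). MGST2, which can also make a leukotriene, had 19.3 and 18.4 CPM in WT and 16.8 and 20.1 CPM in Helz-null libraries. The Helz-null values lay on both sides of the WT values (log2FC -0.018, SE 0.076), and the sign of the difference varied with the library left out. MGST1 made up 16.9% and 17.5% of the summed FPKM of the 3 MGST genes in WT and 1.06% and 1.45% in Helz-null. The sum itself was 55.8 and 56.6 FPKM in WT and 51.2 and 53.1 FPKM in Helz-null.

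GSTP1, the pi-class enzyme found in most proliferating cells, was the most abundant of the 10 mRNAs and made up 60.8% of their summed FPKM in both WT libraries. Its canonical transcript has 7 exons and spans 67351283 to 67354124 on chromosome 11 (GRCh37). It had 330.5 and 335.3 CPM in WT and 293.4 and 291.7 CPM in Helz-null libraries. The groups did not overlap, and the Helz-null level was 87.9% of WT (log2FC -0.19, SE 0.029). In absolute terms this small relative difference outweighed the loss of MGST1. The mean of GSTP1 differed by 347.5 against 305.4 FPKM, and that of MGST1 by 9.66 against 0.66 FPKM. The summed FPKM of all 10 genes was 567.4 and 575.9 in WT and 526.5 and 523.7 in Helz-null libraries.

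Among the soluble mu-class genes, GSTM2 had 26.3 and 28.8 CPM in WT and 28.4 and 31.5 CPM in Helz-null, with overlapping groups (log2FC 0.13, SE 0.062). GSTM3 had 56.8 and 58.5 CPM in WT and 55.9 and 55.3 CPM in Helz-null, the groups lying close without overlapping (log2FC -0.050, SE 0.044). GSTM4 was the least abundant in WT, with 7.84 and 9.23 CPM against 9.59 and 8.92 CPM in Helz-null (log2FC 0.12, SE 0.10). The values of GSTM2 and GSTM4 are uncertain, since these genes resemble others of their cluster on chromosome 1. There the canonical transcripts span 110198721 to 110204322 (GSTM4), 110210679 to 110217908 (GSTM2) and, on the minus strand, 110276559 to 110283660 (GSTM3). Of the 50-base stretches of the canonical transcript, 46.1% in GSTM2 and 18.9% in GSTM4 also occur in transcripts of other genes, mainly GSTM1. GSTO1 shared 4.06% with the pseudogene GSTO3P. GSTM3 shared 2.01% of its stretches but overlaps GSTM5 on the opposite strand. GSTM1 itself had 0 and 1 counts in WT and 4 and 0 in Helz-null libraries, and GSTM5 had 0 and 0 against 4 and 0.

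GSTO1, an omega-class enzyme that also reduces oxidized glutathione adducts, had 88.1 and 91.3 CPM in WT and 87.2 and 84.0 CPM in Helz-null (log2FC -0.068, SE 0.037). GSTK1 had 64.7 and 62.1 CPM in WT and 64.7 and 62.2 CPM in Helz-null, the most even pair of means of the 10 genes (log2FC -0.0034, SE 0.042). GSTZ1, an enzyme of tyrosine breakdown, had 23.7 and 23.8 CPM in WT and 25.8 and 26.7 CPM in Helz-null (log2FC 0.15, SE 0.062). The canonical transcripts lie on chromosome 10 from 106014650 to 106027213 (GSTO1), on chromosome 7 from 142960534 to 142966208 (GSTK1) and on chromosome 14 from 77787379 to 77797940 (GSTZ1). The gene of GSTK1 is overlapped by the antisense RNA gene TMEM139-AS1.

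Per length, the WT order was GSTP1, GSTO1 (68.5 FPKM), GSTK1 (51.7), MGST3 (32.4), GSTZ1 (15.6), MGST2 (14.1), GSTM3 (14.0), GSTM2 (13.7), MGST1 (9.66) and GSTM4 (4.45). MGST2, GSTM3 and GSTM2 could not be ordered, because their 2 WT values overlapped. In Helz-null cells GSTM4 (4.83 FPKM) stood above MGST1 (0.66), and GSTM2 (14.9), MGST2 (13.8) and GSTM3 (13.5) again lay close together. The order of the other genes was shared by both cell types.

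Over all 10978 genes compared, 29.4% were called at an FDR under 0.005, 13.9% as higher and 15.5% as lower in Helz-null cells. With libraries scaled by their totals alone, higher genes made up 61.7% of the calls, against 47.3% with TMM. By the same threshold 3 of the 10 transferase genes fell on the called side, MGST3 as higher and MGST1 and GSTP1 as lower, which is a description, since the genes were chosen with these values known. The groups did not overlap for 6 of the 10, which compares with 70.6% of all genes. The log2FC of the 10 genes had a median of -0.011, and that of all genes was -0.00091.

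**Figure D2:**
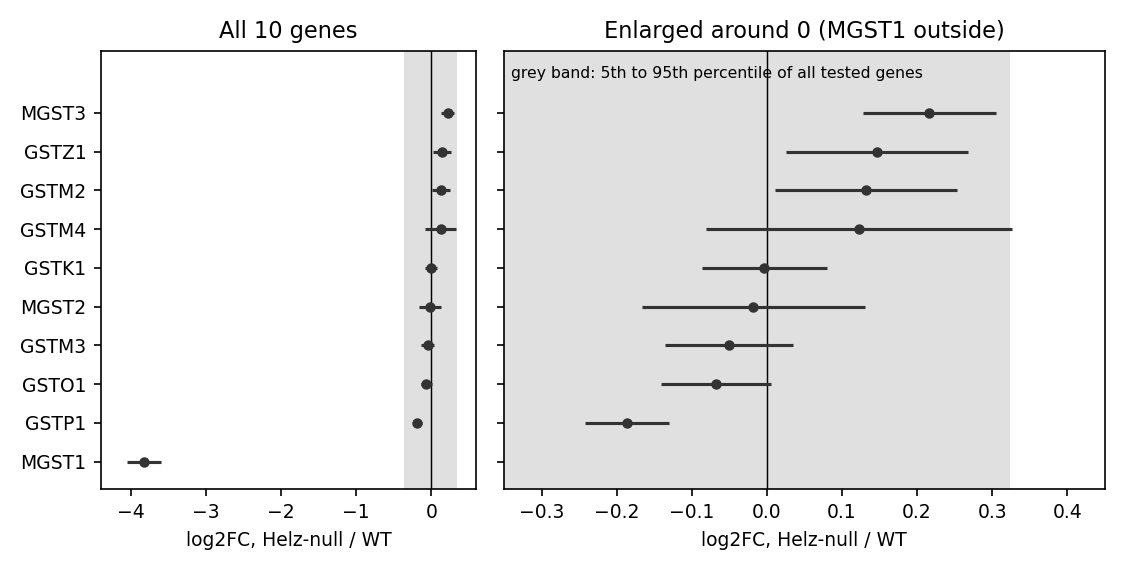
Log2FC between Helz-null and WT cells of the 10 genes (points) with 95% intervals from the SE (bars), in full on the left and enlarged around 0 on the right. The points of all genes but MGST1 lie inside the grey band, which spans the 5th to 95th percentile of all 10978 genes (-0.36 to 0.32).

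Parts of several chromosomes carried genes that were mostly higher or mostly lower in Helz-null cells, and some of the 10 genes lay in such surroundings. Around GSTK1 on chromosome 7, the 20 nearest compared genes had a median log2FC of 0.23, all were above 0 and 12 were called higher. GSTK1 itself had -0.0034 with a 95% interval from -0.087 to 0.08, which does not include that median. Around MGST2 on chromosome 4, 10 of 20 neighbours were called lower and the median was -0.16, while MGST2 had -0.018 with a 95% interval from -0.166 to 0.131, which includes that median. The log2FC of MGST2 was -0.16 without Helz-null replicate 2 and 0.091 without Helz-null replicate 1. It was 0.023 without WT replicate 1 and -0.048 without WT replicate 2. MGST3 on chromosome 1 had 9 of 20 neighbours called higher (median 0.13) and was itself higher. GSTP1 on chromosome 11 was lower among neighbours with a median of 0.092, of which 1 was called lower. The part of these surroundings in the values of the 10 genes was not tested.

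No other glutathione transferase gene in the comparison had a difference near that of MGST1. Of 18 further genes of the family and its MAPEG relatives, 4 were in the comparison, GSTA4, GSTO2, GSTCD and GDAP1. edgeR and DESeq2 each called 0 of these 4, and 0 had an unadjusted p under 0.05 with either tool. Their log2FC ranged from -0.13 to -0.010. GSTA4, an enzyme that clears reactive aldehydes from lipid peroxidation, had 37.5 and 37.6 CPM in WT and 35.3 and 36.0 CPM in Helz-null. GSTA1, GSTA5, GSTT1, GSTT2 and GSTT2B had 0 counts in all 4 libraries. PTGES, a MAPEG enzyme of prostaglandin synthesis, was below the FPKM limit, at 1.53 and 1.26 CPM in WT and 2.63 and 3.06 CPM in Helz-null. In the fit on 16087 genes kept by filterByExpr it was higher in Helz-null (log2FC 1.02, SE 0.20, edgeR adjusted p = 0.00012).

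Genes that supply and recycle glutathione, and those of the lists that follow, were tested one by one in the fit across all genes, and the lists themselves were not tested. Of 12 compared genes for synthesis and turnover, 4 fell and 1 rose, 41.7% of the list against 29.4% of all genes (median log2FC -0.11). With libraries scaled by their totals and with DESeq2, 3 genes of the list were called lower. The other alternatives on these 12 genes with all 4 libraries called 4 or 5 lower. The filterByExpr fit called 4 of 15 lower, and the fit on genes with at least 1 count 6 of 18. With single libraries left out, the number called lower also varied. SLC7A11, the cystine transporter that limits glutathione synthesis, had 60.7 ± 2.49 CPM in WT and fell to 35.5 ± 0.12 CPM (SD, n = 2 each; log2FC -0.77, edgeR adjusted p = 1.05e-16). It lies on chromosome 4 among neighbours with a median of -0.14, of which 8 were called lower. Its partner subunit SLC3A2 fell by 0.34 on the log2 scale, and CHAC1, which degrades glutathione, by 0.63. GSS, glutathione synthetase, was the fourth (log2FC -0.16). SLC7A11 and CHAC1 are also known targets of the amino acid response factor ATF4. The rate-limiting GCLC had a log2FC of 0.010 and its modifier GCLM one of -0.11, and neither was called. CNDP2, a peptidase of glutathione breakdown, rose by a log2FC of 0.56. CNDP2 lies on chromosome 18 among 20 neighbours of which 18 were called higher, with a median of 0.555.

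Of 27 compared genes for peroxide and disulfide reduction, 6 fell and 2 rose, 29.6% of the list and so about the 29.4% of all genes (median log2FC 0.018). GPX1, a glutathione peroxidase, fell from 267.1 ± 2.95 to 207.0 ± 1.79 CPM (SD, n = 2 each, log2FC -0.37, edgeR adjusted p = 1.95e-13). It lies on chromosome 3, where 15 of its 20 neighbours were called lower (median -0.24). Thioredoxin (TXN) fell by 0.25 and sulfiredoxin (SRXN1) by 0.25 on the log2 scale, among neighbours with medians of -0.016 and 0.052. The glutaredoxin gene GLRX (log2FC 0.34) and MSRB1 (0.16), for a methionine sulfoxide reductase, were called higher. With libraries scaled by their totals, 4 genes of the list were called higher. DESeq2 called 0 higher, with 4 at an unadjusted p under 0.05. With single libraries left out in turn, the number called higher was 1 without WT replicate 1, 1 without WT replicate 2, 0 without Helz-null replicate 1 and 1 without Helz-null replicate 2. The peroxidase GPX4 was called lower (log2FC -0.18), and none of the 6 peroxiredoxin genes was called, with log2FC values from -0.082 to 0.070.

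Of 14 compared genes for the export and further handling of glutathione conjugates, 2 rose and 1 fell, 21.4% of the list against 29.4% of all genes (median log2FC 0.035). The transporter gene ABCC5 (log2FC 0.20) was called higher, and ACY1, an aminoacylase, was called lower (-0.27). ACY1 lies on chromosome 3 among neighbours with a median of -0.23. DESeq2 called 0 genes of this list lower, with 3 at an unadjusted p under 0.05, and edgeR called 0 lower without Helz-null replicate 2. Without Helz-null replicate 1, 1 gene was called higher. ABCC1, the main exporter of glutathione conjugates in many cells, had a log2FC of 0.062 and was not called.

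Of 24 compared genes for NRF2, its regulators and its known targets, 8 fell and 4 rose, 50% of the list against 29.4% of all genes (15.5% lower and 13.9% higher), with a median log2FC of -0.058. NQO1, a quinone reductase and a commonly used NRF2 target, fell from 13.7 ± 0.56 to 7.84 ± 0.74 CPM (SD, n = 2 each, log2FC -0.78, edgeR adjusted p = 6.64e-09). Its 20 neighbours on chromosome 16 had a median of -0.040. EPHX1, an epoxide hydrolase, fell by 0.47 on the log2 scale on chromosome 1, where 20 of 20 neighbours were called lower (median -0.66). FTL, the ferritin light chain, fell by 0.27. The aldose reductase gene AKR1B1 (0.20) and the pentose phosphate gene TALDO1 (0.16) were called higher. AKR1B1 lies on chromosome 7 among 20 neighbours of which 11 were called higher, with a median of 0.153. NFE2L2 itself (log2FC 0.12) and KEAP1, its repressor (-0.051), were not called. With libraries scaled by their totals, 7 genes of this list were called higher, and without Helz-null replicate 2, 5 were called lower.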

How the data were processed

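RNA was measured by RNA-Seq in 4 HEK293T libraries (2 WT, 2 Helz-null), grouped by their titles. The deposited counts are raw and come with a gene width. To make them, the authors discarded rRNA reads (Bowtie2), aligned the remaining read pairs to hg19 (TopHat2) and counted by gene (QuasR). Versions, annotation, strand and the treatment of mates and of reads with several matches are not given in the sources used here. The authors' comparison table holds, from edgeR, the deposited log2 fold change, mean log2 CPM, p-value and FDR per gene, none of which was used. Only its list of 10978 genes, selected by the authors on FPKM, defined the genes compared.

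Counts were fitted in R 4.3.3 with edgeR 4.0.16 (limma 3.58.1): library sizes from all 27011 genes, TMM factors from the compared genes, estimated dispersions and the quasi-likelihood functions glmQLFit and glmQLFTest, with WT or Helz-null as the single factor, Benjamini-Hochberg adjustment over all compared genes, and calls at an FDR under 0.005. Standard errors came from the log2FC and the F statistic. Likeness to MGST1 used log2 CPM with a prior count of 2 and genes within 1 of its mean log2 CPM. The Poisson intervals and floors cover counting error alone, whereas the 95% intervals of a log2FC (from its standard error) also reflect the spread between libraries. That spread was estimated with information from all genes, so an interval can be narrower than a gene's own libraries would give. The interval of MGST1, -4.051 to -3.595, left out its log2FC without Helz-null replicate 2 (-4.15). The sources call the replicates biological. Replicates differed by more than counting noise (chi-square per degree of freedom 4.16 for WT and 3.01 for Helz-null, where counting noise alone gives 1, or up to 2 if both mates were counted), so each library was 1 replicate, and p-values measure the spread between these libraries.

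Positions and overlaps came from GENCODE v44 lifted to GRCh37. By symbol, 10896 compared genes were placed, 517 of them by a RefSeq synonym. Promoters came from RefSeq on GRCh38.p14. The 10 genes and the 5 pathway lists were chosen with earlier results of these data known. Named genes were the 10 genes, HELZ, further transferases with an FPKM above 0.5, the 5 genes closest to MGST1 and up to 3 called genes per direction in each list by absolute log2FC, of which some are not reported here. GSS, GCLC, GCLM, GPX4, the peroxiredoxins, ABCC1, NFE2L2 and KEAP1 were added after their values were seen. The fit was first tested on simulated data. Alternatives were scaling by library size, DESeq2 1.42.0, other gene filters, a replicate block, halved counts and single libraries left out. Python 3.11.15, pandas 2.3.3, numpy 2.4.6 and matplotlib 3.10.9 were used for positions and figures.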

Additional observations from a re-analysis of the deposited data

How the results depend on the processing

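The log2FC of MGST1 was negative under all 11 alternatives, from -4.15 to -3.65 with single libraries left out and from -3.84 to -3.79 under the other settings. That of MGST3 ranged from 0.19 to 0.25 and that of GSTP1 from -0.20 to -0.15. The sign changed for GSTK1 under 4 settings, for MGST2 under 3 and for GSTM4 under 1. HELZ kept its call, with a log2FC from -1.47 to -1.41 over the alternatives. Of 253 values recomputed, 22 moved by more than the spread between replicates or, for counts of calls, by more than 1.5 times. MGST1, MGST3, GSTP1 and HELZ did not change sign.

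With libraries scaled by their totals, 4 genes for peroxide and disulfide reduction and 7 for NRF2 and its targets were called higher, against 2 and 4. DESeq2 called 0 peroxide and disulfide genes higher and 0 conjugate genes lower (4 and 3 at an unadjusted p under 0.05), against 2 and 1. In the fits on 16087 genes from filterByExpr and on 20904 genes with at least 1 count, 1 further transferase gene, PTGES, was called higher, because it was tested there. With single libraries left out, 0 to 1 peroxide and disulfide genes were called higher, 1 to 2 conjugate genes higher and 0 to 1 lower, and 5 to 7 NRF2 genes lower. Where not stated, the cause was not tested. With 2 libraries per group, the spread rests on few values.

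The replicate numbers are shared by WT and Helz-null, but deviations of same-numbered libraries correlated by 0.034 only, so they were not taken as pairs. With the replicate block, 1677 genes were called higher and 1841 lower, against 1524 and 1701, and MGST1 had a log2FC of -3.84.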
